A study of Fraxinus excelsior with 182 samples.

Results

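Fe_g31410 is a gene model of European ash (Fraxinus excelsior) whose transcript was either abundant or listed at 0 in the leaves of individual trees. The trees described here were chosen by their measured level of Fe_g31410. Trees with at least 5 TPM were called expressing, and trees with less than 0.1 TPM were called silent. TPM is a transcript abundance scaled for coding length and to the same sum in every tree. Of 182 trees, 98 were expressing, 83 were silent and 1 lay between the limits and was left out of the comparison. Fe_g31410 itself was left out of the genes compared.

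The 182 trees are a Danish panel of common ash, each with 1 leaf library of total RNA read as 100 bp Illumina reads. The labels give the tissue and an Ash number for each tree, and they give no treatment, age, sex, sampling time or replicate. The panel was collected for work on ash dieback, a disease caused by the fungus Hymenoscyphus fraxineus, and damage scores of single trees were not used here. Since each tree is 1 library, p-values weigh differences against the spread between libraries. In that spread, differences between trees and effects of sampling or library cannot be told apart. Relatedness among trees was not modelled.

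Reads were assigned by the authors to coding sequences predicted in a single reference tree, which descended from a self-pollinated parent. A tree that lacks the gene, a tree whose copy differs much from the reference and a tree that does not transcribe the gene would all show little or no signal, and RNA values of this kind cannot tell these apart. Closely similar coding sequences compete for the same reads, and Salmon, the program that made the estimates, divides a read among them. In whole leaves, fewer cells of a type and less RNA per cell cannot be told apart either. No annotation of Fe_g31410 or of Fe_g4201, the gene that the results turn on, was found in the sources used here, so no function is given to them, and their coding sequences were not used here.

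The data held 42665 gene models, of which 31003 reached 1 TPM in at least 19 trees. Without Fe_g31410, 31002 genes were tested. A tree had between 31244 and 34889 genes above 0 TPM. The sequencing depth of a tree cannot be read from TPM and is unknown. Genes of plastid pathways, taken as the check of leaf tissue, were measured in every tree of both groups. All libraries are labelled as leaves, so this presence could not be set against another tissue. Fe_g32180, annotated as coproporphyrinogen-III oxidase, an enzyme of tetrapyrrole synthesis, had 946 ± 188 TPM in expressing trees (SD, n = 98) and 895.1 ± 173.8 TPM in silent trees (SD, n = 83). Fe_g39558, annotated as a kinase of plastid isoprenoid synthesis, had 14.2 ± 4.55 and 14.01 ± 4.20 TPM (SD, same n).

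The level of Fe_g31410 is given as a description, since it chose the groups. All 83 silent trees were listed at exactly 0. Among the 98 expressing trees the lowest value was 22.3 TPM, the next was 23.8 TPM, the median was 87.996 TPM and the highest was 252.7 TPM. The mean was 95.998 ± 50.5 TPM (SD, n = 98). The expressing tree nearest to the limit of 5 TPM was thus well above it, and the tree labelled Ash51 lay below it, at 4.15 TPM. No tree lay between 4.15 and 22.3 TPM, so the 2 groups did not touch. Where it was expressed, Fe_g31410 was a well expressed leaf gene, since 93.8% of the tested genes had a lower mean in the same trees. The level within the expressing trees formed 1 continuous cluster.

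**Figure D1:**
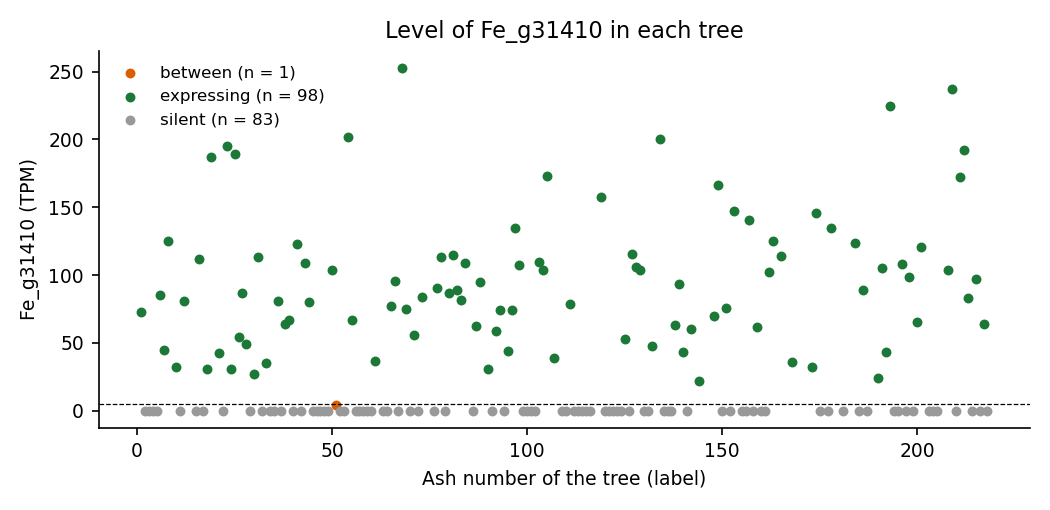
Level of Fe_g31410 in TPM (y axis) in each of the 182 trees, placed by Ash number (x axis), with 1 point per tree and the limit of 5 TPM as a dashed line. Silent trees lie at 0 along the whole range of Ash numbers, expressing trees start at 22.3 TPM, and 1 tree lies at 4.15 TPM.

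The Ash number, the only label that differs between trees, was spread alike over the groups. Its mean was 104.9 in expressing trees and 104.9 in silent trees (two-sided permutation test, p = 1). Numbers up to the median of 100.5 were carried by 51 expressing and 39 silent trees, and higher numbers by 47 expressing and 44 silent trees. Whole-transcriptome measures of the trees did not separate the groups beyond their spread. With the Ash number counted among them, 8 measures were compared. The lowest p belonged to the second principal component, on which expressing trees were lower by 0.29 SD (95% interval -0.58 to 0.00, permutation p = 0.0506, adjusted over the 8 measures p = 0.281). On the first component, which held 30.5% of the variance, the difference was -0.16 SD (95% interval -0.45 to 0.13, permutation p = 0.293). Expressing trees had 33594 ± 578 genes above 0 TPM (SD, n = 98) and silent trees 33718 ± 443 (SD, n = 83; permutation p = 0.114).

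The first question was which other genes differ between expressing and silent trees. With limma on log2(TPM + 1) and Benjamini-Hochberg adjustment, 1 gene was lower in expressing trees, 0.00323% of the genes tested, and 0 genes were higher. At an unadjusted p under 0.05 stood 2368 genes, or 7.64%. The gene that fell was Fe_g4201. Its identifier is far from that of Fe_g31410. Positions in the genome were not used here, and nearness below means nearness of identifiers.

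Fe_g4201 was detected in every silent tree. In these 83 trees its lowest value was 23.3 TPM, its median 94.6 TPM and its highest 223.5 TPM. In the 98 expressing trees the lowest value was 0, the median 41.1 TPM and the highest 141.9 TPM. The groups overlapped: 28 expressing trees lay below the lowest silent tree, 23 of them listed at 0, and 70 lay within the range of the silent trees. The difference was -2.18 ± 0.28 on the log2(TPM + 1) scale (SE, 95% interval -2.73 to -1.63, limma adjusted p = 1.53e-08). This scale weighs the trees at 0 heavily, and the fitted value is therefore not a fold change of the typical tree.

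The difference was of like size among low and high Ash numbers. Among the lower numbers it was -2.15 ± 0.37 (SE, 95% interval -2.89 to -1.41, limma adjusted p = 0.00391), with 10 of 51 expressing trees at 0. Among the higher numbers it was -2.23 ± 0.41 (SE, 95% interval -3.05 to -1.42, limma adjusted p = 0.0138), with 13 of 47 expressing trees at 0. The interaction of group and Ash number was -0.08 for Fe_g4201 (limma adjusted p = 0.9997). Over all tested genes limma called 0 interactions, and 802 had an unadjusted p under 0.05.

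**Figure D2:**
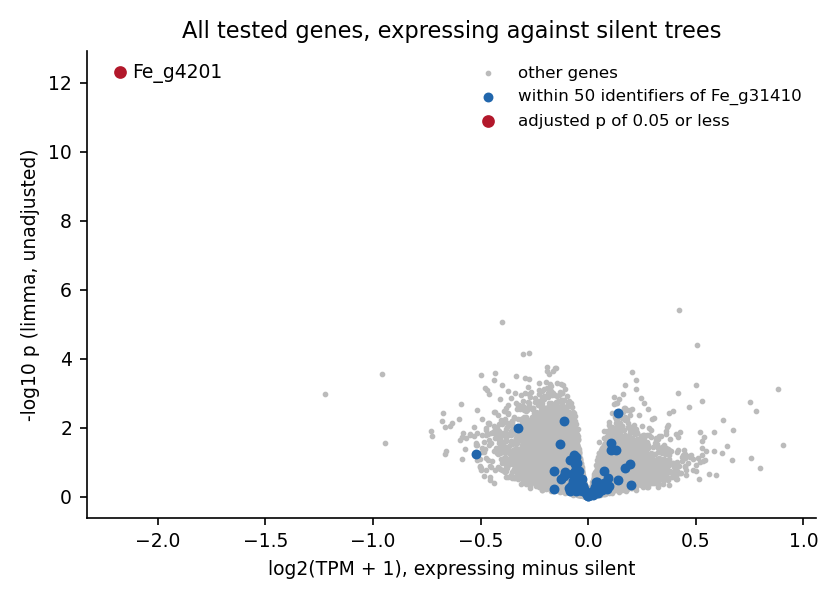
Difference in log2(TPM + 1), expressing minus silent trees (x axis), against -log10 of the unadjusted limma p (y axis) for the 31002 genes tested, with 1 point per gene. Fe_g4201 stands alone at -2.18, and the genes within 50 identifiers of Fe_g31410 lie among the other genes.

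The states of Fe_g31410 and Fe_g4201 were then laid side by side in all 182 trees, as a description. A test of on and off states is given further below. At a limit of 0.1 TPM, Fe_g4201 alone was present in 83 trees (45.6%, exact binomial 95% interval 38.2% to 53.1%). Both genes were present in 76 trees (41.8%, interval 34.5% to 49.3%), which are 75 expressing trees and Ash51. Fe_g31410 alone was present in 23 trees (12.6%, interval 8.18% to 18.4%). Neither gene was present in 0 of 182 trees, which allows a share of up to 1.65%, taken as 3 trees of 182, and of up to 2.01% by the exact interval. Each tree thus had at least 1 of the 2 transcripts. These intervals cover the sampling of trees and treat trees as independent. They do not account for the choice of Fe_g4201 from these same data.

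The levels of the pair differed between these states as well. In the 75 expressing trees with both genes, Fe_g31410 ran from 22.3 to 200.5 TPM with a median of 81.6 TPM. In the 23 trees with Fe_g31410 alone, it ran from 23.8 to 252.7 TPM with a median of 157.4 TPM, or 1.93 times the median of the trees with both. The ranges overlapped widely, since 4 of the 23 trees lay above the highest tree with both genes and 6 of them lay under 80 TPM. Fe_g4201 showed the matching order. It ran from 16.1 to 141.9 TPM with a median of 51.8 TPM in the 75 trees with both genes, and its median in the silent trees was 1.83 times as high. Of the silent trees, 12 lay above the highest tree with both. In Ash51, Fe_g4201 stood at 108.97 TPM, and 32 silent trees were higher.

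The sum of the 2 genes is given by state as a description. The states were set by the values of these same genes, so its spread over the states cannot be weighed against theirs. It was 99.3 ± 43.9 TPM in silent trees (SD, n = 83), where all of it was Fe_g4201. It was 137.6 ± 53.9 TPM in the 75 trees with both genes, and 141.2 ± 67.01 TPM in the 23 trees with Fe_g31410 alone (SD). Within the trees with both, Fe_g31410 was the higher of the 2 in 65 trees and the lower in 10 trees. The ratio of Fe_g31410 to Fe_g4201 had a lowest value of 0.260, a median of 1.53 and a highest value of 4.302 (coefficient of variation 45.5%, n = 75). Whether the 2 identifiers stand for forms of 1 gene, for separate copies or for unrelated sequences was not tested. If their coding sequences are alike, Salmon would divide reads between them, and their values in a tree would not be independent measurements.

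**Figure D3:**
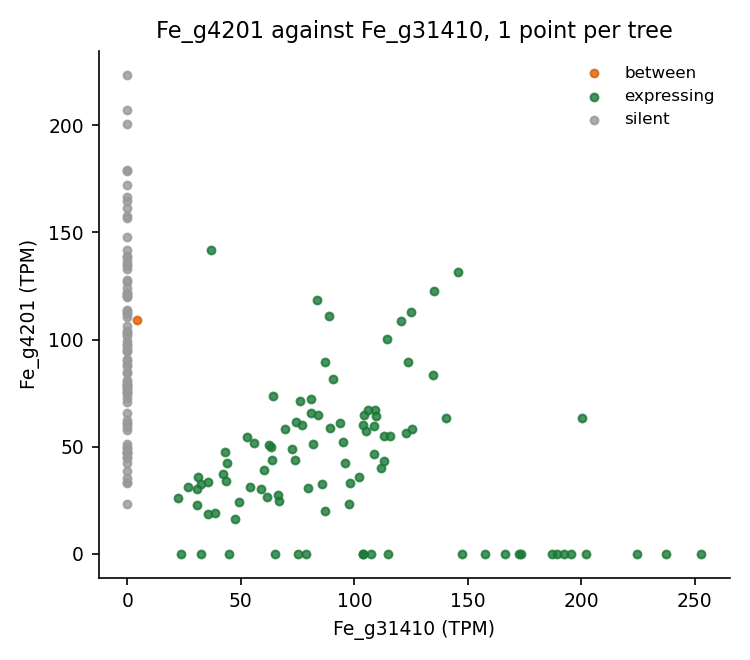
Fe_g4201 (y axis, TPM) against Fe_g31410 (x axis, TPM), with 1 point per tree, coloured by the group of the tree. Silent trees form a column at 0 of Fe_g31410, 23 expressing trees form a row at 0 of Fe_g4201, 75 expressing trees lie between the axes, and no tree lies at the origin.

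**Figure D4:**
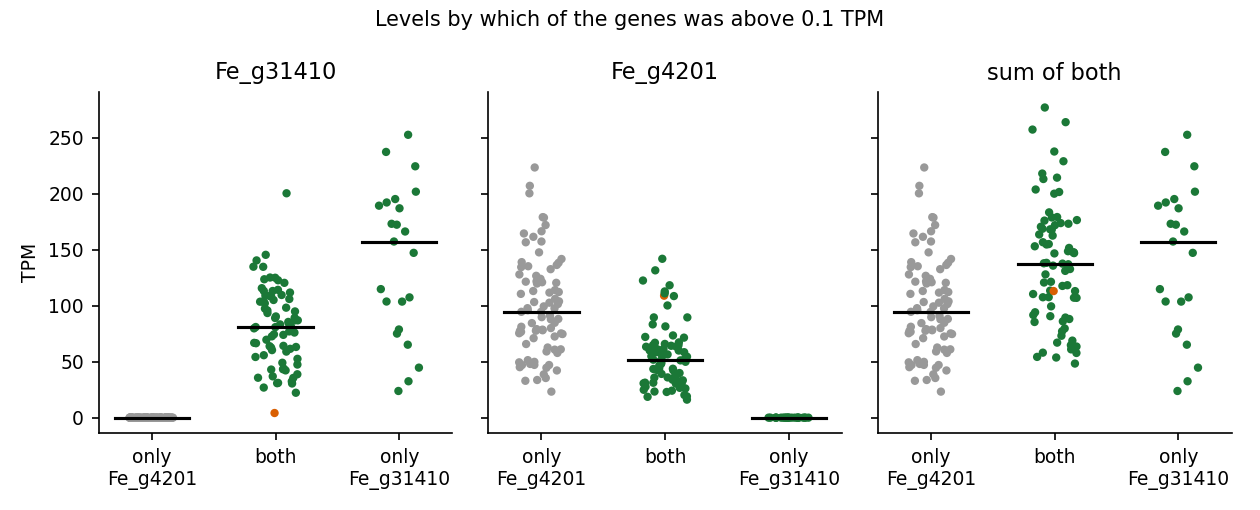
TPM of Fe_g31410, of Fe_g4201 and of their sum (y axis) in trees with Fe_g4201 alone, with both or with Fe_g31410 alone above 0.1 TPM (x axis), with 1 point per tree and the median as a line. The medians of Fe_g31410 are 81.6 and 157.4 TPM in the states that hold it, those of Fe_g4201 are 94.6 and 51.8 TPM, and Ash51 is the orange point.

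Presence and absence were also tested for each gene with a state of its own. A gene was taken as on at 1 TPM or more and off under 0.1 TPM, and 1112 genes were on in at least 19 trees, off in at least 19 trees and between in at most 18 trees. Fisher's exact test called 1 of them, 0.0899%, and 59 had an unadjusted p under 0.05. The gene called was again Fe_g4201, on in 75 of 98 expressing and 83 of 83 silent trees (two-sided Fisher's exact test, p = 2.85e-07, adjusted p = 0.000317). The same trees and the same 23 values of 0 entered the limma fit, so this call is no separate support. No other gene passed. The nearest was Fe_g20011, a low gene with a highest value of 4.53 TPM, on in 43 of 96 expressing and 15 of 83 silent trees (44.8% and 18.1%, adjusted p = 0.111 by the same exact test). Fe_g36193 went the other way, on in 11 of 97 expressing and 27 of 83 silent trees (adjusted p = 0.277, exact). Fe_g17439 was on in 92 of 98 and 63 of 83 trees, and Fe_g1096.1 in 68 of 96 and 38 of 82 trees (adjusted p = 0.277 each, exact). Fe_g18379, a JOINTLESS-like MADS-box gene that is itself on or off in this panel, was on in 62.8% of expressing and 69.1% of silent trees (adjusted p = 1, exact).

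The next question was whether genes with nearby identifiers follow the state of Fe_g31410. They did not pass the test. The 10 nearest gene models by identifier, 5 on each side, held 7 tested genes, with 0 called and 1 at an unadjusted p under 0.05. Fe_g31409, the neighbour below, had a median of 68.6 TPM in expressing and 65.9 TPM in silent trees, a difference of 0.05 in log2(TPM + 1) (95% interval -0.26 to 0.35). Its ranges were 4.15 to 142.99 TPM and 0 to 126.8 TPM, with 1 silent tree at 0, so a neighbour with abundant transcript was present in trees of both states.

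Fe_g31411, the neighbour above, was itself on in a minority of trees of each group. It was listed at 0 in 81 of 98 expressing and 66 of 83 silent trees, and it reached 1 TPM in 13 expressing and 8 silent trees, with highest values of 92.1 and 115.6 TPM. Its state was not tied to that of Fe_g31410 by the test (two-sided Fisher's exact test, p = 0.642, adjusted p = 1), and its level differed by 0.20 (95% interval -0.32 to 0.73, limma adjusted p = 0.811). The interval leaves room for a difference of up to 0.73.

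Fe_g31414 had the lowest p of these neighbours, with a median of 3.97 TPM in expressing and 4.28 TPM in silent trees (difference -0.11, 95% interval -0.19 to -0.03, limma adjusted p = 0.567). The neighbours Fe_g31408, Fe_g31413 and Fe_g31415 were low in both groups. Fe_g31408 had medians of 0.844 and 0.829 TPM, Fe_g31413 of 1.66 and 1.85 TPM, and Fe_g31415 of 1.23 and 1.17 TPM. Fe_g31406.2 was near 0 in most trees, with medians of 0.104 and 0.130 TPM. Fe_g31405 and Fe_g31416 were listed at 0 in all trees of both groups. Fe_g31407 reached at most 0.551 TPM and was not tested.

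A wider view gave the same picture. Within 50 identifiers of Fe_g31410 there were 93 gene models and 70 tested genes, with 0 called by limma and 7 (10%) at an unadjusted p under 0.05, against 7.64% over all genes. The median difference of the 70 was -0.03, which is also the median over all genes. The lowest was Fe_g31456, with medians of 16.5 and 20.2 TPM (difference -0.52, 95% interval -1.06 to 0.02, limma adjusted p = 0.652), and the highest was Fe_g31411. With 5 components in the fit the difference of Fe_g31456 was 0.03. The lowest p was that of Fe_g31392.1, with 24.4 and 20.9 TPM (difference 0.14, 95% interval 0.05 to 0.23, limma adjusted p = 0.562). The 95% interval reached past a difference of 0.5 in either direction for 5 of the 70 genes and past 1 for 1 of them. Within 200 identifiers, 271 genes were tested, 0 were called and 21 (7.75%) had an unadjusted p under 0.05.

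Genes with identifiers near Fe_g4201 did not pass either. Within 50 identifiers 66 genes were tested, 0 were called by limma and 5 (7.58%) had an unadjusted p under 0.05. Fe_g4202, the neighbour above, was abundant in both groups, with medians of 77.4 TPM in expressing and 74.4 TPM in silent trees (difference -0.21, 95% interval -0.47 to 0.05). Fe_g4200, the neighbour below, had 5.44 and 4.64 TPM (difference 0.05, 95% interval -0.26 to 0.36).

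**Figure D5:**
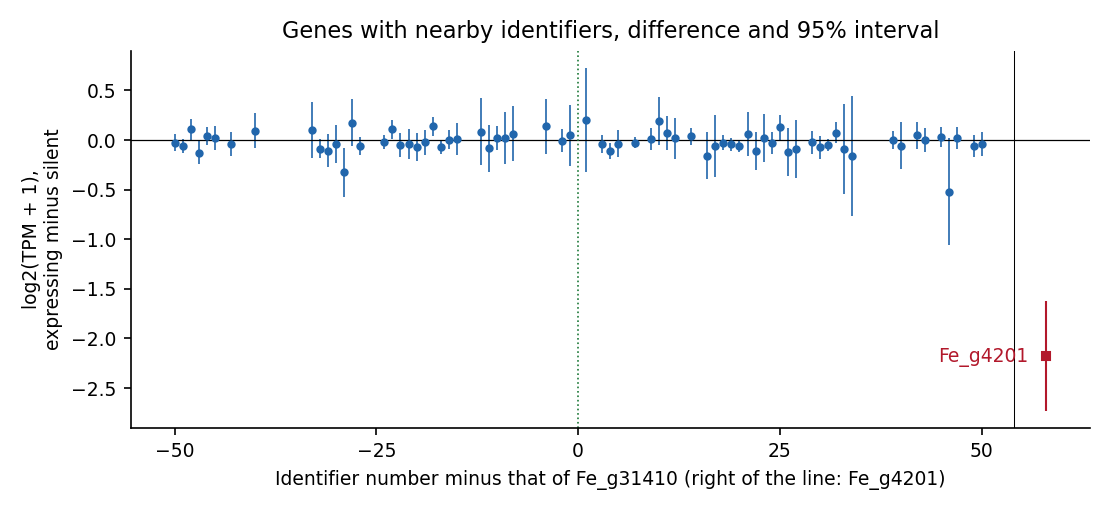
Difference in log2(TPM + 1), expressing minus silent trees (y axis, with 95% interval), for the 70 tested genes within 50 identifiers of Fe_g31410, placed by identifier number minus that of Fe_g31410 (x axis), and for Fe_g4201 at the right. The neighbours lie between -0.52 and 0.20, and Fe_g4201 lies at -2.18.

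Groups of genes that the study had annotated were compared next, 13 lists in all, and limma called 0 members of any list. The list of damage-associated genes held here is the part of the study's table that was used, its lowest p values, and not all genes that the study linked to dieback damage. All but 1 member of this list were tested, and 14 (10.4%) had an unadjusted p under 0.05, against 7.64% over all genes. Their median difference was -0.05 and their range -0.35 to 0.16. The study chose these genes on this panel, so they are no independent sample of leaf genes.

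The MADS-box genes, transcription factors of flowering and dormancy, were measured in both groups and not called as different between them. The 4 SOC1-like genes, related to a promoter of flowering, differed by 0.01 to 0.07. Of these, Fe_g40350 had medians of 34.3 TPM in expressing and 33.1 TPM in silent trees (difference 0.07, 95% interval -0.12 to 0.26). Fe_g22999, related to the flowering repressor SVP, had 18.004 and 18.1 TPM (difference -0.07, 95% interval -0.40 to 0.26). The 6 JOINTLESS-like genes differed by -0.33 to 0.00. The lowest was Fe_g18379, with medians of 5.24 TPM in expressing and 7.68 TPM in silent trees (difference -0.33). Its 95% interval, -0.86 to 0.19, leaves room for a larger difference.

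Members of 3 other lists had an unadjusted p under 0.05, and none passed the adjusted test. Lists can share members with the damage-associated genes, so these are not all separate from the genes counted there. These were 3 of 5 protein kinases, 1 of 5 AP2 and ethylene response genes and 1 of 5 clock and light signalling genes, against 7.64% over all genes. Fe_g33197.2, with a serine/threonine kinase domain, stood in both the kinase and the damage-associated list. It had medians of 19.3 TPM in expressing and 20.7 TPM in silent trees (difference -0.09, 95% interval -0.15 to -0.03, limma adjusted p = 0.562). Fe_g22337, annotated as a leucine-rich repeat receptor-like kinase, had 1.41 and 1.79 TPM (difference -0.19, limma adjusted p = 0.596). Fe_g37713, annotated as an ETHYLENE INSENSITIVE 3-like 3 protein, had 3.60 and 3.90 TPM (difference -0.10, 95% interval -0.17 to -0.03, limma adjusted p = 0.562). Fe_g21102, annotated as a B-box zinc finger, had 3.71 and 4.26 TPM (difference -0.16, limma adjusted p = 0.628). Fe_g20031, annotated as a cyclic nucleotide-gated ion channel and 1 of the damage-associated genes, had 8.07 and 8.77 TPM (difference -0.12, limma adjusted p = 0.561).

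In the remaining lists no member reached an unadjusted p under 0.05. These were the 3 OVATE repressors, the 4 NF-YA and TOPLESS-related regulators, the 4 heat shock and chaperone genes, the 4 plastid genes, the 6 cell wall enzymes and the 4 auxin and transport genes. Over all members, the lowest lower bound of a 95% interval was -0.40, among the cell wall enzymes. The highest upper bound was 0.33, among the OVATE repressors. TOPLESS-related proteins are corepressors of transcription, and Fe_g6059, annotated as one, had medians of 3.50 TPM in expressing and 3.54 TPM in silent trees (difference -0.07).

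Across all 182 trees, as a description, Spearman's rho with Fe_g31410 was lowest for Fe_g4201, at -0.530. Next came Fe_g14537, at -0.305, and Fe_g43882, at -0.296. The highest values were 0.305 for Fe_g20011, 0.291 for Fe_g26378 and 0.287 for Fe_g1926. These rho values pool silent trees, all tied at 0, with expressing trees. In these pooled values no other gene came close to Fe_g4201. They carry the split that made the groups, so they are no separate support for its call. The ranking did not hold for the level within the expressing trees. There, Pearson's r with Fe_g31410 was 0.5 or more for 1535 genes and -0.5 or less for 551. For Fe_g4201 it was -0.26, with its trees at 0 included.

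The last question was what goes with the level of Fe_g31410 among the trees that express it, which the rule for the groups did not use. It was measured on log2(TPM + 1) for Fe_g4201 and the tested neighbours, in a family of 9 permutation tests of 100000 resamples, for which 1e-05 is the smallest p. In the 75 trees with both genes, Fe_g4201 rose with Fe_g31410 (Pearson's r = 0.556 and Spearman's rho = 0.587, two-sided permutation p = 1e-05 and adjusted p = 4.5e-05 for each). Without the 2 trees farthest from the median level, r was 0.535. Over all 98 expressing trees, with the 23 at 0 of Fe_g4201 included, the relation had the opposite sign (r = -0.26).

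Of the neighbours, Fe_g31409 rose with the level in the 98 expressing trees (r = 0.555, rho = 0.509, permutation p = 1e-05 and adjusted p = 4.5e-05 for each, r = 0.540 without 2 trees). Fe_g31406.2 fell with it (r = -0.380 with adjusted p = 0.00051, rho = -0.337 with adjusted p = 0.00246 by permutation, r = -0.405 without 2 trees), and 49 of the 98 trees had under 0.1 TPM of this gene. Fe_g31414 did not pass after adjustment (r = 0.212, permutation p = 0.0359, adjusted p = 0.0807; rho = 0.128, permutation p = 0.208, adjusted p = 0.469). Fe_g31408, Fe_g31413 and Fe_g31415 had r between -0.06 and 0.05. The expressing trees fell into 2 clusters for Fe_g31411, of 85 and 13 trees, with r of 0.03 and 0.05 within them.

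These relations moved with the first principal component of the panel. Over the expressing trees, r with this component was 0.509 for the level of Fe_g31410, 0.866 for Fe_g31409 and -0.811 for Fe_g31406.2. In the 75 trees with both genes it was 0.521 for Fe_g4201. After adjustment for the first 5 components, r with the level was 0.117 for Fe_g31409, 0.02 for Fe_g31406.2 and 0.05 for Fe_g4201. In silent trees, which lack Fe_g31410, Fe_g4201 itself had an r of 0.509 with the first component and of 0.459 with Fe_g31409. Both transcripts thus had an r of 0.509 with the main axis of variation in leaves, one in the expressing and the other in the silent trees.

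Many genes across the transcriptome moved with the level of Fe_g31410 in the same way. Among the 98 expressing trees limma called 17004 genes (54.8%), of which 9115 (29.4% of all tested) rose with the level and 7889 (25.4%) fell. The highest r was that of Fe_g44587, at 0.662 (limma adjusted p = 3.59e-09), followed by Fe_g33391.2 at 0.648 and Fe_g45522 at 0.644. The lowest were those of Fe_g24912 and Fe_g37439, at -0.626 each, and of Fe_g29610, at -0.616. In silent trees the same 6 genes, in this order, had an r with Fe_g4201 of 0.565, 0.434, 0.552, -0.480, -0.575 and -0.521, with the sign of the first relation in each case.

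With the first 5 components in the fit, 0 genes rose and 2 fell with the level, Fe_g4201 and Fe_g21708. This fit was over all 98 expressing trees, of which 23 were at 0 of Fe_g4201, so its sign for this gene differs from that within the 75 trees with both. With the state of Fe_g4201 added to the 5 components, 11 rose and 0 fell. These settings were chosen after the data were seen. The lists held few members, and their counts stand beside 29.4% of all genes that rose and 25.4% that fell. Without covariates, 3 of 3 OVATE repressors, known in Arabidopsis as repressors of transcription, rose with the level (median r 0.287), and 3 of 4 NF-YA and TOPLESS-related regulators fell (median r -0.290). Of the 4 heat shock and chaperone genes 2 rose, and of the 6 cell wall enzymes 2 fell. In the JOINTLESS-like, AP2 and ethylene response, and plastid lists 1 member each rose, in the auxin and transport list 1 fell, and in the clock list 1 rose and 1 fell. Among the SOC1-like genes, the SVP-like gene and the protein kinases 0 were called. The median r over all genes was 0.01. Of the damage-associated genes tested, 22 (16.3%) rose and 30 (22.2%) fell, both smaller shares than over all genes. With 5 components 0 members of any list were called.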

How the data were processed

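Leaf RNA of 182 ash trees, 1 library each, had been sequenced as 100 bp reads in an earlier study. Trimming was done by the authors with Trimmomatic, and Salmon 0.8 was run against the coding sequences they predicted in a long-read assembly. Its output was read into R 4.3.3 through tximport. The deposited values are TPM, corrected by the authors for coding length, and they add up to 1000000 in each tree. A few abundant genes can thus lower all others, and since depth is unknown, counting error could not be given.

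Trees were grouped by Fe_g31410 at 5 TPM or more, or under 0.1 TPM. Members and lists were chosen with earlier results of these data known. Genes that reached 1 TPM in 19 or more trees were compared on log2(TPM + 1), a scale that understates changes of low genes, with limma 3.58.1 (eBayes with trend, no covariate) in R 4.3.3. Genes at or under 0.05 after Benjamini-Hochberg adjustment were called. Principal components were computed in R 4.3.3, and Fisher's exact test and permutation tests in Python 3.11.15 with scipy 1.17.1. The procedures were tested on simulated data. The genes named were those called, the 5 identifiers on either side of Fe_g31410, the 5 on/off genes closest to its state in each direction, the 2 lowest p of each list, and the 3 highest and lowest rho. Fe_g18379 as an on/off gene, Fe_g39558, Fe_g4200, Fe_g4202, Fe_g31456, Fe_g31392.1, Fe_g43749, Fe_g20023 and the genes named for their r with the level or in fits with components were chosen after their values were seen.

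Alternatives were a pseudocount of 0.1, no log, no filter, a filter at 5 TPM, median-of-ratios scaling, covariates (5 components, genes detected or Ash number), groups split at 1 TPM, trees left out, each range of Ash numbers alone, a rank-sum test and other limits for the on/off states.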

Additional observations from a re-analysis of the deposited data

How the results depend on the processing

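Fe_g4201 was called lower in expressing trees in each of 13 alternatives, with a difference between -2.96 and -2.12 on log scales and a highest adjusted p of 0.0138, among the higher Ash numbers alone. The count of genes lower in expressing trees was 1 in each of them. The count of genes higher was 0 in the reported fit and 1 with a filter at 5 TPM and with median-of-ratios scaling, in both cases Fe_g43749. Counts at an unadjusted p under 0.05 ran from 1290 to 2927. With on/off limits at 0.5 TPM, Fe_g4201 was the gene called among 7641 tested. Of the 53 named genes tested, 18 changed sign under at least 1 alternative, in 31 of 671 values, and 0 of these values were called. The cause was not tested. With 5 components these were Fe_g20799 (0.0125), Fe_g31415 (0.0406), Fe_g31456 (0.0264), Fe_g33132 (0.0177), Fe_g34397 (-0.0368), Fe_g39558 (-0.0153), Fe_g4200 (-0.0481), Fe_g44878 (0.00541) and Fe_g5474 (-0.0231). Among high Ash numbers they were Fe_g28064 (0.0524), Fe_g31411 (-0.00687), Fe_g31413 (0.000512), Fe_g35175.1 (0.0786), Fe_g36128 (-0.0762), Fe_g4200 (-0.0508) and Fe_g6538 (-0.0396). Among low numbers they were Fe_g22999 (0.0288), Fe_g31408 (0.000687), Fe_g31409 (-0.0383), Fe_g31415 (0.103), Fe_g34397 (-0.0257) and Fe_g39558 (-0.0968). A pseudocount of 0.1 gave -0.133 for Fe_g34397 and -0.0462 for Fe_g4200. TPM with no log gave 0.193 TPM for Fe_g35175.1. Fe_g31408 was at 0.0097 with genes detected as covariate, at 0.0122 with median-of-ratios scaling and at 0.00664 as a rank-sum effect, where Fe_g31411 was at -0.0197. When the 18 trees at the top of component 1 were left out, Fe_g34397 was at -0.00829 and Fe_g39558 at -0.0095. Without 2 trees, r of Fe_g31411 with the level in its cluster of 13 trees was -0.0797. The counts of genes that moved with the level of Fe_g31410, 9115 that rose and 7889 that fell, became 0 and 2 with 5 components, and 11 and 0 with 5 components and the state of Fe_g4201. With that state alone they were 9789 and 8946. These fits were chosen after seeing the data, and the cause was not tested beyond them. No paired analysis was possible because each tree has 1 library and the labels share no replicate number between groups. Depth per tree is unknown, so a value of 0 cannot be given a detection limit.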

Other observations

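The genes closest to a call after Fe_g4201 were picked after their values were seen. Fe_g43749 had a median of 52.9 TPM in expressing trees (20.6 to 136.95 TPM) and 39.4 TPM in silent trees (13.3 to 104.2 TPM), ranges that overlap widely. Its difference was 0.42 in log2(TPM + 1) (95% interval 0.25 to 0.60, limma adjusted p = 0.0594), and its adjusted p over the alternatives ran from 0.0209 to 0.933, the highest with 5 components in the fit. Among expressing trees its r with the level of Fe_g31410 was -0.02. Fe_g20023 had a median of 2.68 TPM in expressing and 3.49 TPM in silent trees (difference -0.40, limma adjusted p = 0.0887). No annotation of either gene was found in the sources used here.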
